A study of Homo sapiens with 12 samples.

Results

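Transcript levels of 10 genes of bone morphogenetic protein (BMP) signalling were followed in lung cancer cells with and without PA200, a nuclear activator of the proteasome encoded by PSME4. The 10 genes were the ligands BMP4 and GDF6, the receptors BMPR1A and BMPR2, the inhibitors SMAD6 and BAMBI, and the target genes ID1, ID2, ID3 and ID4. They were taken by symbol, and all 10 were found among the 59050 gene symbols of the count tables. GDF6, ID1 and ID3 were chosen by their measured change between H1299 knockout and wild type, so their values in that comparison are a description and carry no test. The other 7 genes were added as relatives in the same pathway.

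The libraries came from A549 and NCI-H1299 (H1299), human non-small-cell lung cancer lines that were either wild type (WT) or carried a CRISPR/Cas9 knockout (KO) of PA200. There were 4 groups of 3 libraries, A549 WT, A549 KO, H1299 WT and H1299 KO, all from cells cultured for 48 h with no other agent named. The labels do not say whether a knockout is 1 clone or several, nor whether the 3 libraries of a group are separate cultures. The p-values thus measure only the spread between these libraries, and the source of that spread was not tested. It exceeded counting error in every pair of libraries of a group. The chi-square per degree of freedom of a pair ran from 7.65 (H1299 KO) to 50.5 (A549 WT). In H1299 WT the tumour suppressor CDKN2A, known to be deleted in A549, stood at 45.6 ± 4.35 CPM (counts scaled to library size, SD, n = 3), and all 6 A549 libraries had 0 counts.

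BMP ligands bind a complex of type I and type II receptor kinases, which phosphorylate SMAD1, SMAD5 and SMAD9. These join SMAD4, enter the nucleus and switch on target genes, of which the ID genes are the classic readout. ID proteins have a helix-loop-helix domain but no DNA-binding region, so they capture E proteins such as TCF3 and TCF4 and keep cells from differentiating. SMAD6 and BAMBI are themselves BMP-induced brakes. In lung, BMP4 is known for its part in airway branching during development, and ID1 has been studied in lung cancer as a gene linked to proliferation and spread.

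The ID gene promoters are shown because these 4 targets were compared with each other. Each line is the 250 bases before the RefSeq transcript start (GRCh38.p14), ID1 at chr20:31605039-31605288 on the plus strand, ID2 at chr2:8681806-8682055 on the plus strand, ID3 at chr1:23559502-23559751 on the minus strand and ID4 at chr6:19837120-19837369 on the plus strand. Capitals mark matches on either strand to TATAAA, the TATA box, to CAGAC, the SMAD box, or to GGCGCC, a GC-rich SMAD-binding motif.
ID1: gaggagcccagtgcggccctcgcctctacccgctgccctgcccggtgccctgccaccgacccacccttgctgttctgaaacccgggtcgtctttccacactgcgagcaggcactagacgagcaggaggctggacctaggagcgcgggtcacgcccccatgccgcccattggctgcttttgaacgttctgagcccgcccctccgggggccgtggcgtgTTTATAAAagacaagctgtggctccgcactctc
ID2: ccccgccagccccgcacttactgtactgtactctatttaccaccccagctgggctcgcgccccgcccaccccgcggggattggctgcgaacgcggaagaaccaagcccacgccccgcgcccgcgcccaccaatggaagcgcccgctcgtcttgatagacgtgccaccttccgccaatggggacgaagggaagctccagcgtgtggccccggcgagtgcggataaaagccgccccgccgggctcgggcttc
ID3: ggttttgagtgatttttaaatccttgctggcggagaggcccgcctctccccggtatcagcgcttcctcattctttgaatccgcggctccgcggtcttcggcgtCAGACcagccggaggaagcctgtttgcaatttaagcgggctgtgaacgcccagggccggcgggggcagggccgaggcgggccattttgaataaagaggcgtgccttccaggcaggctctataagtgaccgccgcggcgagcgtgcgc
ID4: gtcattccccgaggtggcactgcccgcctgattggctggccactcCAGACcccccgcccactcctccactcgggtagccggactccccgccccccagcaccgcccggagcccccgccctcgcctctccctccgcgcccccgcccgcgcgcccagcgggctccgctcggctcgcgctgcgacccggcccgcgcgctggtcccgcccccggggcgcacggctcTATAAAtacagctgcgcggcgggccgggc
In the ID1 window TATAAA was found on both strands, overlapping, at -33 and -31 from the start, and CAGAC was not found. The ID3 window held CAGAC at -147, and the ID4 window held CAGAC at -205 and TATAAA at -29. No match to these 3 motifs was found in the ID2 window, and none of the 4 windows held GGCGCC. Among 35116 RefSeq promoter windows of this length, 10.7% held TATAAA, 38% held CAGAC and 16.4% held GGCGCC, so none of these letters is rare. A RefSeq window was found for 9 of the 10 genes.

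Total counts ran from 16599401 to 40983933 per library, and every A549 KO library was deeper than every A549 WT library. PSME4 stood at 11.6% of WT in A549 KO (log2 fold change -3.13, SE 0.19, adjusted p = 0.00109, edgeR quasi-likelihood test) and at 21.7% in H1299 KO (-2.203, SE 0.08, adjusted p = 7.35e-06). Of 4 leukocyte markers, PTPRC and CD3E had 0 counts in every library and LYZ at most 8 in a group, while CD68, a lysosomal protein, stood at 21.0 ± 7.12 CPM in A549 WT, 18.4 ± 4.04 in A549 KO, 74.5 ± 15.7 in H1299 WT and 66.7 ± 5.32 in H1299 KO. The summed level of 7 lung epithelial and A549 markers was 17560 to 20170 CPM in A549 WT and 19790 to 21010 in A549 KO. Single markers moved within it: the keratin KRT19 rose in A549 KO (34.5 ± 15.1 to 154.4 ± 18.7 CPM, log2 fold change 2.15, adjusted p = 0.0247), the only one of 7 called, while EPCAM stood at 1.23 (adjusted p = 0.134), AKR1B10 at -0.51 (0.0616) and AKR1C1 at -0.61 (0.0773). In H1299 the same sum was lower in the knockout, at 131.2 to 197 against 256.1 to 396 CPM in WT, and 2 of its 3 tested members, KRT8 (-1.03, adjusted p = 0.0243) and KRT18 (-0.83, adjusted p = 0.0172), fell. The H1299 markers were also lower in H1299 KO, VIM with a call (-0.31, adjusted p = 0.0373, edgeR) and CDKN2A without (-0.40, adjusted p = 0.0877). Fibroblast and endothelial markers, 5 in all, summed to 2.4 to 10.6 CPM in A549 WT and 5.67 to 10.7 in A549 KO. Their sum was 0.516 to 0.727 CPM in H1299 WT and 0.495 to 0.81 in H1299 KO. The part of these marker changes in the results was not tested.

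In A549, loss of PA200 went with a higher level of 1 ligand transcript, BMP4, while the ID genes and receptors gave no call. Of the 10 genes 9 passed the filter on low counts, and 1 of these 9 was called at an adjusted p under 0.05 (edgeR), higher, against 2.14% of all 20093 genes tested (0.99% higher). The median log2 fold change of the 9 was -0.07, and that of all genes was -0.01. In this bulk RNA, fewer cells of a kind and less RNA per cell cannot be told apart.

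BMP4, at 14:53949736-53958761 (GRCh38, minus strand), stood at 1.01, 1.67 and 1.74 CPM in the 3 A549 WT libraries and at 15.2, 14.4 and 25.3 CPM in the KO libraries. The groups were far apart, and the lowest KO library was several times the highest WT library. The means were 1.47 ± 0.402 and 18.3 ± 6.09 CPM (SD, n = 3), a 12.4-fold difference, with a log2 fold change of 3.61 (SE 0.31, adjusted p = 0.0088, edgeR). Raw counts were 16, 34 and 31 in WT against 454, 429 and 1017 in KO, so the WT libraries passed the filter on their own. The call was also made with counts thinned to equal depth and after centring each library within chromosomes. KRT19, an epithelial marker, also rose in these KO libraries, and its part was not tested. The BMP4 call was lost without A549 WT replicate 2, where the log2 fold change was 3.71 and the adjusted p = 0.0572. In H1299 the gene was silent or nearly so, with 0, 0 and 1 counts in WT and 1, 1 and 0 in KO, and no fold change can be given.

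GDF6, a ligand known for roles in skeletal and eye development, lies at 8:96142330-96160792 (minus strand). Its higher counts were in H1299. In H1299 WT it had 15, 10 and 14 counts, or 0.496, 0.287 and 0.622 CPM, and in H1299 KO 69, 291 and 72 counts, or 2.23, 12 and 2.26 CPM. All KO libraries lay above all WT libraries, and KO replicate 2 stood far above the others. The means were 0.468 ± 0.170 and 5.50 ± 5.63 CPM (SD, n = 3), 11.7-fold apart, with a log2 fold change of 3.57 (SE 0.75). Without KO replicate 2 the log2 fold change was 2.30. In A549 GDF6 had 1, 3 and 7 counts in WT and 1, 3 and 4 in KO. There the KO over WT ratio was 0.394, with an exact 95% interval from 0.138 to 1.08 that covers counting error only, and the gene was too low to be tested.

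**Figure D1:**
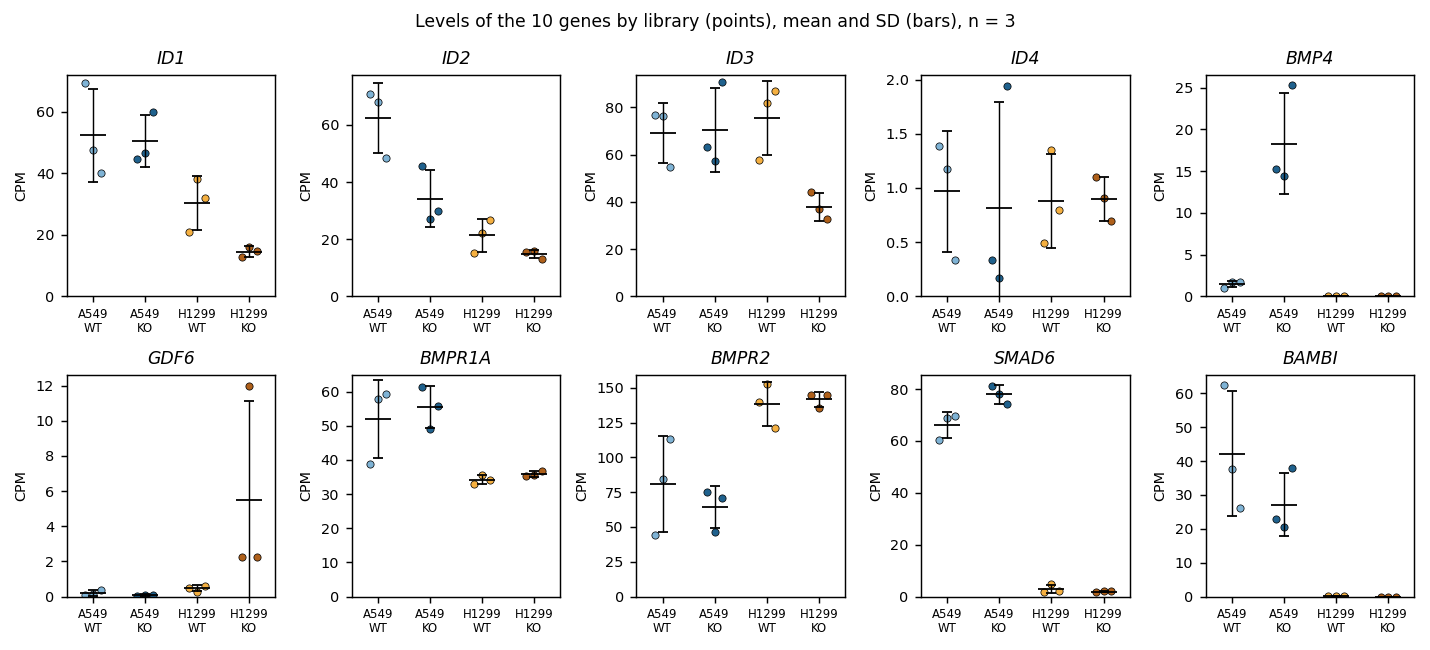
Level in CPM of each of the 10 genes in every library (points), with the group mean and SD (bars, n = 3), for A549 and H1299 wild type (WT) and PA200 knockout (KO). BMP4 is high only in the 3 A549 KO libraries (14.4 to 25.3 CPM), GDF6 is highest in H1299 KO replicate 2 (12 CPM), and SD bars that reach below 0 are clipped at the axis.

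No call was made for either receptor in A549 or H1299. BMPR1A, a type I receptor kinase at 10:86756601-86932838 (plus strand), stood at 39.0, 57.7 and 59.5 CPM in A549 WT and 61.3, 49.0 and 55.9 in A549 KO. In H1299 it stood at 32.9, 35.7 and 34.0 in WT and 35.3, 35.6 and 36.9 in KO. The groups overlapped in both lines, and the H1299 libraries lay closer together. The log2 fold change was 0.07 in A549 (SE 0.18, 95% interval -0.34 to 0.49, adjusted p = 0.862) and 0.07 in H1299 (SE 0.07, 95% interval -0.10 to 0.24, adjusted p = 0.599).

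BMPR2, the type II receptor kinase that activates the type I partner, lies at 2:202376936-202567751 (plus strand). Its level was 44.6, 84.6 and 113 CPM in A549 WT and 75.2, 46.7 and 70.9 in A549 KO. The WT libraries spanned the whole range of the KO libraries (-0.35, SE 0.32, 95% interval -1.08 to 0.39, adjusted p = 0.602). In H1299 it was 139.8, 153 and 121.5 in WT and 145, 135.3 and 144.8 in KO (0.04, SE 0.09, 95% interval -0.16 to 0.23, adjusted p = 0.828). For BMPR2 in A549 the interval is wide and differences of either sign are inside it. Genes of chromosome 2, where BMPR2 and the knocked-out PSME4 both lie, had a median of -0.46 in A549 and 0.04 in H1299. The source of this shift was not tested. After centring within chromosomes BMPR2 stood at 0.11 in A549.

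The inhibitors sat at quite different levels in A549 and H1299. SMAD6, the intracellular inhibitor of BMP receptor signalling, lies at 15:66702228-66782848 (plus strand). In A549 it stood at 60.5, 68.7 and 69.5 CPM in WT and 81.3, 78.3 and 74.3 in KO. Every KO library was above every WT library, yet the difference was small and did not pass (0.22, SE 0.11, 95% interval -0.04 to 0.48, adjusted p = 0.344). Genes of chromosome 15 had a median of 0.17 in this comparison, and after centring within chromosomes SMAD6 stood at 0.01. In H1299 it stood at 1.82, 4.87 and 2.22 CPM in WT and 1.72, 2.02 and 1.98 in KO (-0.66, SE 0.34, 95% interval -1.43 to 0.10, adjusted p = 0.265). One WT library, replicate 2, was well above the rest, and without it the log2 fold change was -0.08.

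BAMBI, a pseudoreceptor that resembles a type I receptor but lacks the kinase, lies at 10:28677342-28682939 (plus strand). It stood at 62.3, 37.8 and 26.3 CPM in A549 WT and 22.9, 20.6 and 37.8 in A549 KO. The groups overlapped (-0.64, SE 0.33, 95% interval -1.41 to 0.12, adjusted p = 0.339). In H1299 WT it had 3, 6 and 1 counts, and in all 3 KO libraries 0. The KO over WT ratio was 0, with an exact 95% interval from 0 to 0.449 that covers counting error only. Both H1299 groups were close to the limit of detection, and BAMBI was too low there to be tested in the main fit. With no filter on low counts the edgeR test called BAMBI in H1299.

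Non-overlapping groups were seen for 3 of the 9 tested genes in A549, BMP4, SMAD6 and ID2, against 25.5% of all genes tested. In H1299, none of the 7 genes that were not picked was called, of which 5 were tested, against 8.84% of all 20194 genes tested (edgeR, adjusted p under 0.05). Of those 5 only ID2 had an unadjusted p under 0.05. None of the 5 had groups that did not overlap, against 30.1% of all genes tested. DESeq2 called 1 of them and limma-voom called 0.

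**Figure D2:**
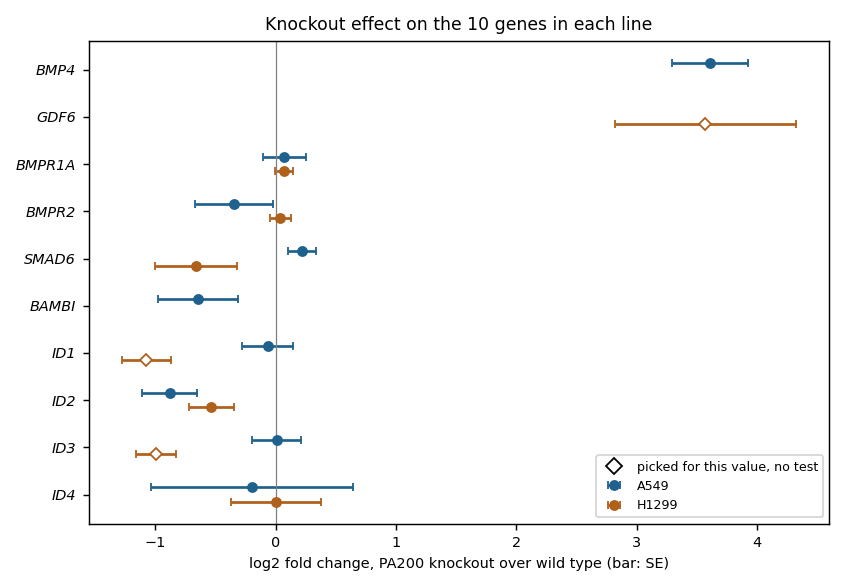
Log2 fold change of PA200 knockout over wild type for the 10 genes in A549 and H1299 (points) with the SE of the fit (bars). Open diamonds are GDF6, ID1 and ID3 in H1299, which were picked for these values (3.57, -1.07 and -0.99), and genes too low to be tested in a line have no point there.

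The ID genes did not share 1 pattern: ID1 and ID3 had been picked for lower levels in H1299 KO, ID2 was lower in the mean of both knockouts without passing, and ID4 was hardly expressed. ID1, at 20:31605283-31606515 (plus strand), stood at 20.9, 38.2 and 32.0 CPM in H1299 WT and 12.6, 16.0 and 14.7 in H1299 KO. The KO libraries were all lower than the WT libraries and close together, at 47.6% of the WT mean (log2 fold change -1.07, SE 0.20). In A549 it stood at 69.2, 47.6 and 40.1 CPM in WT and 44.5, 46.6 and 60.0 in KO. These groups overlapped, and the log2 fold change of -0.07 did not pass (SE 0.21, 95% interval -0.55 to 0.42, adjusted p = 0.896).

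ID3, at 1:23557918-23559794 (minus strand), stood at 57.7, 81.6 and 86.8 CPM in H1299 WT and 44.2, 36.9 and 32.6 in H1299 KO. Again all KO libraries were lower, at 50.3% of the WT mean (-0.99, SE 0.17). In A549 it stood at 76.8, 76.5 and 54.6 CPM in WT and 63.4, 57.4 and 90.6 in KO. The groups overlapped there (0.01, SE 0.20, 95% interval -0.46 to 0.48, adjusted p = 0.987), and the sign was not stable. Leaving out single libraries moved the H1299 values between -1.30 and -0.87 for ID1 and between -1.17 and -0.87 for ID3.

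ID2, at 2:8678845-8684453 (plus strand), was not picked for its response. In A549 it stood at 70.7, 68.1 and 48.4 CPM in WT and 45.8, 27.0 and 29.9 in KO. All KO libraries were lower than all WT libraries, at 54.9% of the WT mean, but the difference did not pass (-0.88, SE 0.23, adjusted p = 0.0886). It passed with no low-count filter (adjusted p = 0.0171), in DESeq2 (0.00868), in the 12-library fit (0.0346) and without A549 WT replicate 3 (0.0475), and its adjusted p ran from 0.00868 to 0.345 over the alternatives. ID2 lies on chromosome 2, where 87% of tested genes had a negative log2 fold change in A549 with a median of -0.46, and after centring within chromosomes ID2 stood at -0.46 (adjusted p = 0.345).

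In H1299 ID2 stood at 15.2, 22.2 and 26.6 CPM in WT and 15.4, 15.7 and 13.1 in KO. WT replicate 1 lay among the KO libraries, and the log2 fold change of -0.53 did not pass (SE 0.19, adjusted p = 0.115). It passed with no low-count filter (0.0028), in DESeq2 (0.031) and without H1299 WT replicate 1 (0.016), with adjusted p from 0.0028 to 0.309 over the alternatives. ID2 overlaps the antisense gene ID2-AS1 in the annotation, and since the strand setting of the counting is not given in the sources used here, reads from the pair cannot be told apart.

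ID4, at 6:19837386-19840684 (plus strand), was expressed at a trace level. It had 22, 24 and 6 counts in A549 WT and 10, 5 and 78 in A549 KO, and 15, 47 and 18 in H1299 WT and 34, 22 and 22 in H1299 KO. The single high library, A549 KO replicate 3, made the A549 interval wide (-0.20, SE 0.84, 95% interval -2.12 to 1.72, adjusted p = 0.922). In H1299 its change was 0.01 on the log2 scale, with SE 0.37 (adjusted p = 0.995).

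Summed over the 4 ID genes, the level was 185.0 ± 38.0 CPM in A549 WT, 155.8 ± 25.7 in A549 KO, 127.9 ± 29.2 in H1299 WT and 67.9 ± 6.24 in H1299 KO (SD, n = 3). The single libraries were 218.1, 193.3 and 143.5 in A549 WT against 154, 131.1 and 182.4 in A549 KO, which overlapped. In H1299 they were 94.2, 143.4 and 146.2 in WT against 73.3, 69.5 and 61.1 in KO, which did not. The H1299 sum contains ID1 and ID3, which were picked, and so adds nothing independent to their values.

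The knockout effect was also compared between the lines directly (H1299 minus A549, 1 fit over 12 libraries). None of the 7 genes that were not picked was called (against 3.48% of 22635 genes tested, edgeR), and DESeq2 also called 0. The lack of a call does not show that the effects were alike. Among these only SMAD6 had an unadjusted p under 0.05, with a difference of -0.91 (SE 0.36, adjusted p = 0.197). The differences were 0.33 for ID2 (SE 0.32, adjusted p = 0.649), 0.37 for BMPR2 (SE 0.36, adjusted p = 0.659) and -0.02 for BMPR1A (SE 0.20, 95% interval -0.45 to 0.42). Those of BMP4 and BAMBI rest on near-zero counts in H1299 and are not interpreted. ID1 and ID3 differed by -1.02 each (SE 0.32 and 0.29) and GDF6 by 4.87 (SE 1.50), as a description of the picked genes. The value of GDF6 rests on near-zero counts in A549 (11 in WT and 8 in KO, summed) and is not interpreted either. It ran from 3.59 to 5.25 over the libraries left out. Since the genes were picked on H1299, whether their effect differs between the lines was not tested.

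The wild-type lines were compared with each other as well. Of the 7 genes that were not picked, 6 were called between H1299 WT and A549 WT, 5 lower and 1 higher in H1299. Of all 22635 genes tested 65.6% were called (33.7% lower, 31.8% higher), so most genes differed between the lines and the count is not a result about these 7. BMP4 and BAMBI passed the filter through A549 libraries alone and so had to differ, and are given by level only. This comparison uses the same WT libraries as the knockout comparisons.

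SMAD6 was lower in H1299 WT, at 2.97 ± 1.66 against 66.3 ± 4.99 CPM (log2 fold change -4.45, adjusted p = 1.33e-08, edgeR). BAMBI was at 0.105 ± 0.064 against 42.1 ± 18.4 CPM, as a description. BMP4 had 1 count against 81, a ratio of A549 to H1299 of 131.2 with an exact 95% interval from 22.9 to 5247 for counting error.

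ID2 was lower in H1299 WT (log2 fold change -1.55, SE 0.23, adjusted p = 5.87e-05), at 21.3 ± 5.78 against 62.4 ± 12.2 CPM. BMPR1A was lower (-0.61, SE 0.14, adjusted p = 0.00223), but stood at 0.01 after centring within chromosomes (adjusted p = 0.94). BMPR2 was higher in H1299 WT (0.77, SE 0.26, adjusted p = 0.0179), a call lost without A549 WT replicate 1, A549 WT replicate 2, H1299 WT replicate 1 or H1299 WT replicate 2 (0.44 to 1.10 over the libraries left out). ID4 did not differ detectably (-0.11, SE 0.73, adjusted p = 0.905). ID1, ID3 and GDF6 stood at -0.78, 0.12 and 1.15, as a description. Groups of the 10 genes did not overlap for 7, namely ID1, ID2, SMAD6, BAMBI, BMP4, BMPR1A and BMPR2 (BMP4 and BAMBI by the filter), close to the 67.8% of all genes tested.

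Counts per kilobase of exon allow the genes to be ranked against each other roughly. The length was the union of all annotated exons of a gene, from 1233 bases for ID1 to 11900 for BMPR2. Exons that are not expressed count in it and lower the level. SMAD6 was above BAMBI in A549 WT by CPM (66.3 against 42.1) and is below it only per kilobase. In A549 WT the order was ID1 (42.4 ± 12.2 CPM per kb), ID3 (38.6 ± 7.08), ID2 (28.3 ± 5.53), BAMBI (18.2 ± 7.97), SMAD6 (7.74), BMPR2 (6.78), BMPR1A (4.56), BMP4 (0.477), ID4 (0.413) and GDF6 (0.0542). ID1 and ID3 differed by less than either SD, as did BMP4 and ID4, and SMAD6 and BMPR2 differed by less than the SD of BMPR2. In A549 KO, BMP4 stood at 5.94 ± 1.97 CPM per kb, level with BMPR2 (5.40 ± 1.29) and BMPR1A (4.85 ± 0.537).

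In H1299 WT the per-length order was ID3 (42.0 ± 8.66), ID1 (24.6 ± 7.10), BMPR2 (11.6 ± 1.33), ID2 (9.67 ± 2.62), BMPR1A (2.998), ID4 (0.376), SMAD6 (0.347), GDF6 (0.127), BAMBI (0.0455) and BMP4 (0.00481). BMPR2 and ID2 differed by less than the larger SD, and ID4 and SMAD6 likewise. In H1299 KO, ID3 (21.1 ± 3.27) was still first and BMPR2 (11.9 ± 0.465) and ID1 (11.7 ± 1.39) were level. GDF6 stood at 1.49 ± 1.52 CPM per kb, below ID1, ID2 and ID3 and above ID4, with 3.24 CPM per kb in replicate 2.

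**Figure D3:**
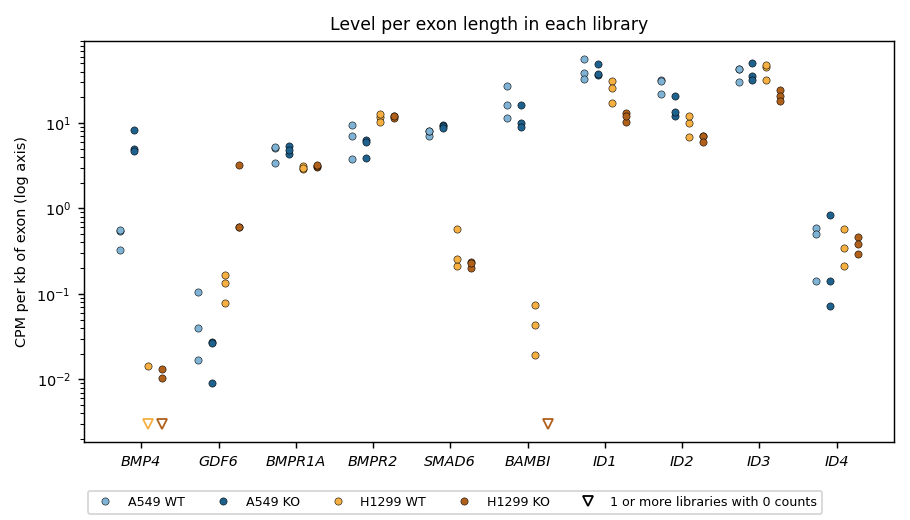
Level per kilobase of exon of the 10 genes in every library (log axis), by line and genotype, and triangles mark groups with 1 or more libraries at 0 counts. ID1, ID2 and ID3 are among the 4 highest genes in all 4 groups, BMP4 and BAMBI are near 0 in H1299, and GDF6 is above 1 CPM per kb only in H1299 KO replicate 2.

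The order of the 3 libraries within a group was compared over the genes, as a description that includes genes with few counts. In A549 WT, replicate 1 was highest for ID1, ID2, ID3, ID4 and BAMBI and lowest for SMAD6, GDF6, BMP4, BMPR1A and BMPR2, and replicate 3 had exactly the reverse. A549 KO replicate 3 was highest for 5 genes, ID1, ID3, ID4, BAMBI and BMP4. In H1299 WT, replicate 1 was lowest for 7 of the 10, counting BMP4, where it tied with replicate 2 at 0 counts. Replicate 2 was highest for 6 of the 10. In A549 WT the 4 ID genes thus had their highest and lowest values in the same libraries. Genes outside the 10 did so too, such as KRT18 (2319, 1891 and 1136 CPM), and NEO1 had the reverse order (73.0, 102.8 and 156.8). The share of all genes with either order was not counted, so this is not a result about the ID genes.

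The rest of the pathway was described with 63 other genes in 7 lists, of which 62 were in the tables. In A549, 36 were tested and 1 was higher and 0 lower (edgeR, adjusted p under 0.05), against the 2.14% of all genes. Their median log2 fold change was 0.09, and that of all genes was -0.01. The called gene was TCF4, an E protein captured by ID proteins, at 4.41, 7.36 and 5.21 CPM in WT and 12.1, 11.7 and 15.4 in KO. Its groups did not overlap (1.18, SE 0.23, adjusted p = 0.0468). The call was lost when any 1 of the 6 libraries was left out (adjusted p 0.0526 to 0.157) and after centring within chromosomes (0.0635).

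No ligand of the list (0 of 4 tested), receptor or co-receptor (0 of 7), SMAD transducer (0 of 3), intracellular inhibitor (0 of 6), secreted antagonist or protease (0 of 7) or other target gene (0 of 5) was called in A549, while the E proteins and the ID deubiquitinase USP1 gave 1 of 4. Some uncalled genes had an adjusted p under 0.1 (edgeR) and are named after their values were seen. They included RUNX2 at 0.95 (adjusted p = 0.0961) and ACVR1 at -0.65 (0.0548). BMP5 passed the low-count filter only because of its A549 KO libraries, and HEY1 only because of its A549 WT libraries. Both are given by level only. BMP5, a ligand of the BMP7 group, had 4, 2 and 4 counts in A549 WT and 19, 18 and 25 in A549 KO, and 0 in all H1299 libraries. HEY1 stood at 0.693, 0.982 and 0.952 CPM in A549 WT and 0.335, 0.470 and 0.299 in A549 KO.

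In H1299, 34 list genes were tested, and 3 were higher and 2 lower, against 8.84% of all genes (4.66% higher, 4.18% lower). Their median log2 fold change was 0.12, and that of all genes was -0.003. BMPR1B, a type I receptor, stood at 3.80, 0.315 and 3.96 CPM in WT and 12.6, 12.5 and 10.8 in KO (2.202, SE 0.56, adjusted p = 0.0411). BMP8A, a ligand, stood at 1.82, 2.24 and 2.13 CPM in WT and 2.91, 3.34 and 3.29 in KO (0.62, SE 0.16, adjusted p = 0.0445), though reads may be shared with its close paralog BMP8B. RUNX2, an osteoblast transcription factor induced by BMPs, stood at 3.80, 5.13 and 3.42 in WT and 6.38, 7.01 and 6.37 in KO (0.67, SE 0.17, adjusted p = 0.0391).

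The genes that fell in H1299 KO were an inhibitor and a target. SMAD7, an inhibitor of TGF-beta and BMP receptors, stood at 1.95, 2.98 and 1.87 CPM in WT and 1.30, 1.07 and 1.16 in KO (-0.95, SE 0.23, adjusted p = 0.0364). ATOH8, a helix-loop-helix transcription factor induced by BMP signalling in endothelium, stood at 2.41, 6.45 and 2.80 in WT and 1.94, 0.701 and 0.909 in KO (-1.71, SE 0.45, adjusted p = 0.0483). All 5 genes had groups that did not overlap, which adds nothing independent, since they were called on the same libraries. Over all tested list genes, called or not, such groups were seen for 2 of 4 ligands, 2 of 7 receptors and co-receptors and 1 of 4 SMAD transducers. They were also seen for 2 of 6 intracellular inhibitors, 2 of 6 secreted antagonists and proteases, 2 of 3 other targets and 2 of 4 E proteins and USP1. The share of all tested genes was 30.1%. None of the 5 called genes passed at an adjusted p under 0.01.

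Every one of these 5 calls was lost when single libraries were left out. BMP8A lost it in all 6 such fits (adjusted p up to 0.148). BMPR1B lost it without WT replicate 3 or any 1 KO library (up to 0.104), SMAD7 without WT replicate 2, WT replicate 3 or any KO library (up to 0.122), and RUNX2 without WT replicate 1, WT replicate 3 or any KO library (up to 0.112). ATOH8 lost it without WT replicate 2 or 3 or KO replicate 2 or 3 (up to 0.165). The calls per list were 1 of 4 ligands, 1 of 7 receptors and co-receptors, 0 of 4 SMAD transducers, 1 of 6 intracellular inhibitors, 0 of 6 secreted antagonists and proteases, 2 of 3 other target genes, in opposite directions, and 0 of 4 E proteins and USP1. Uncalled list genes with an adjusted p under 0.1 in H1299 (edgeR), named after their values were seen, all stood higher in KO. They were ACVR1 at 0.34 (adjusted p = 0.0515), TWSG1 at 0.23 (0.0525), SMAD1 at 0.37 (0.0564), BMP6 at 0.28 (0.0698), TCF4 at 0.28 (0.0786) and USP1 at 0.26 (0.0893).

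**Figure D4:**
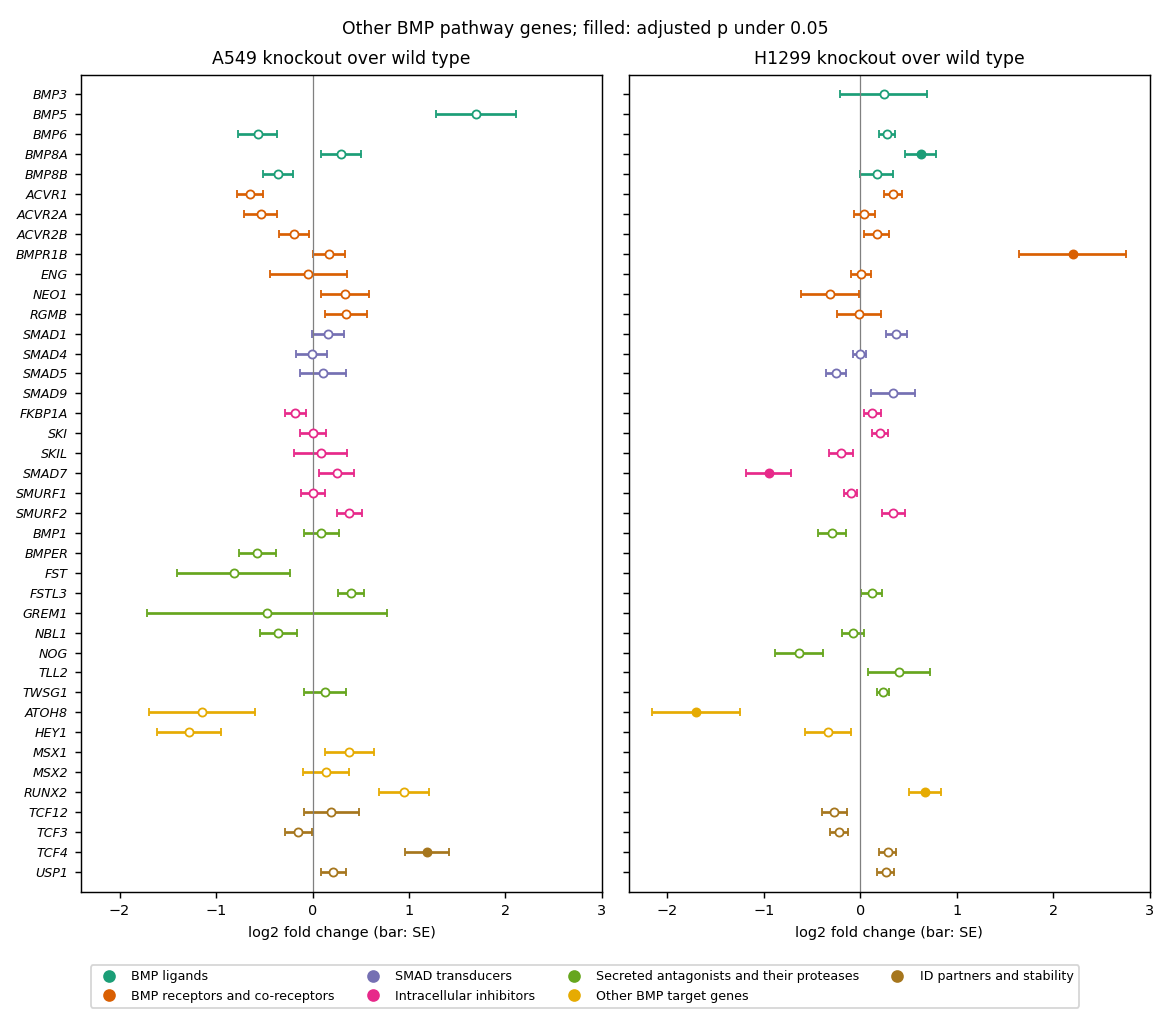
Log2 fold change of PA200 knockout over wild type, with the SE, for the BMP pathway genes outside the 10 that were tested in A549 (left) or H1299 (right), coloured by list, and filled where the adjusted p is under 0.05. TCF4 (1.18) is the filled point in A549, and BMPR1B (2.202), BMP8A (0.62), RUNX2 (0.67), SMAD7 (-0.95) and ATOH8 (-1.71) are filled in H1299.

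The knockout effect differed between the lines for 2 of 41 list genes tested, against 3.48% of all genes. ACVR1, the type I receptor also called ALK2, stood at 31.0, 34.6 and 34.7 CPM in A549 WT and 21.1, 19.2 and 24.4 in A549 KO. In H1299 it stood at 31.9, 27.3 and 27.8 in WT and 37.8, 33.6 and 38.4 in KO. It was lower in every A549 KO library and higher in every H1299 KO library (difference 0.97, SE 0.16, adjusted p = 0.00906), although neither line passed alone (-0.65, adjusted p = 0.0548 and 0.34, adjusted p = 0.0515). ACVR1 lies on chromosome 2, and after centring within chromosomes the difference was 0.49 (adjusted p = 0.171). SMAD7 stood at 19.0, 24.1 and 25.8 CPM in A549 WT and 30.02, 22.4 and 30.3 in A549 KO, and differed between the lines by -1.22 (SE 0.29, adjusted p = 0.0393), a call lost in 10 of 12 fits with 1 library left out.

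**Figure D5:**
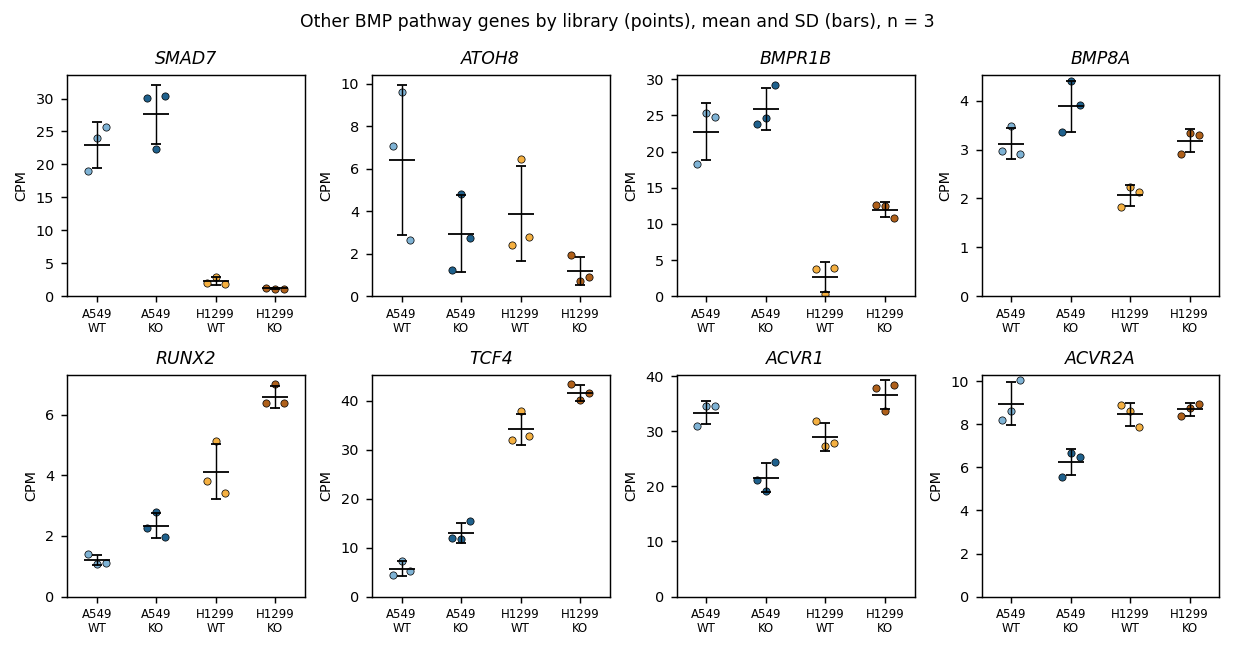
Level in CPM of 8 other BMP pathway genes in every library (points), with the group mean and SD (bars, n = 3). SMAD7 is near 25 CPM in A549 and under 3 CPM in H1299, BMPR1B is higher in H1299 KO than in H1299 WT, and ACVR1 lies lower in A549 KO and higher in H1299 KO than in the respective WT.

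The gene of each list with the highest level per kilobase, averaged over all 12 libraries, is given next; it need not be the highest in each line. The ligand BMP6 stood at 15.9 ± 3.30 CPM per kb in A549 WT, 10.8 ± 2.24 in A549 KO, 20.7 ± 1.66 in H1299 WT and 25.1 ± 1.71 in H1299 KO, above BMP4 and GDF6 in every group. SMAD5 led the transducers, at 7.59 ± 2.03 in A549 WT and 11.1 ± 1.16 in H1299 WT. FKBP1A, which holds type I receptors inactive, led the inhibitors at 135.3 ± 7.25 and 147.0 ± 17.1. The co-receptor NEO1 stood at 13.7 ± 5.23 in A549 WT but at 0.601 ± 0.266 in H1299 WT, where RGMB (13.3 ± 5.19) and ACVR1 (7.27 ± 0.635) of the same list were higher. TWSG1, a secreted modulator of BMPs, stood at 9.88 ± 2.61 and 25.0 ± 0.745, and in A549 WT the antagonists FSTL3 (19.99 ± 2.88) and NBL1 (14.3 ± 4.01) were above it. USP1, which stabilises ID proteins, stood at 18.4 ± 2.44 and 39.4 ± 3.87. MSX2 led the other targets at 1.29 ± 0.0904 CPM per kb in A549 WT and had 1 count in all H1299 libraries.

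For the 3 picked genes, the genes with the most similar pattern over the 12 libraries were found among 22635 expressed genes, by the smallest root mean square difference of centred log2 CPM. For GDF6 they were FUT9 (0.77), AC139722.1 (0.80), NPFFR2 (0.85), ELMOD1 (0.87) and AL136981.3 (0.88), against a median of 1.99 over all genes. For ID1 they were INF2 (0.25), LDLRAD2 (0.27), DDR1 (0.28), CCDC96 (0.28) and COA6-AS1 (0.29), against 0.94. For ID3 they were PLXNB2 (0.20), NPEPL1 (0.22), AC007728.1 (0.22), AMH (0.22) and MT2A (0.24), against 0.69. DDR1, a collagen receptor kinase, averaged 52.0 and 59.4 CPM in A549 WT and KO and 30.3 and 17.95 in H1299 WT and KO. MT2A, a metallothionein, averaged 74.4, 79.0, 74.2 and 40.98 CPM in the same order. Genes like GDF6 were mostly near the floor: FUT9, AC139722.1 and NPFFR2 averaged 0 CPM in both A549 groups and 0.158, 0.0775 and 0.0957 in H1299 WT. The root mean square of GDF6 about its own mean was 1.96, so the median of 1.99 is about the distance to a flat gene. The lists for ID1 and ID3 shared no gene, but with 5 genes each out of 22635 this says little about how alike ID1 and ID3 are.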

How the data were processed

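Counts of reads per gene, in 1 table per line, were deposited by the authors for 12 libraries. Per the labels' protocols, a stranded mRNA kit was used on 1 µg of RNA. Per the submitters' processing notes, the software was bcl2fastq 2.20.0.422 and the named genome GRCm38.p6 is of mouse, while the symbols are human. The aligner, counter and strand setting are not given in the sources used here. Of 59050 symbols 95.2% matched GENCODE 29 (GRCh38), which gave positions and exon lengths (the union of all annotated exons of a gene).

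Groups were taken from the labels. Within each line genes were kept by filterByExpr (minimum count 10), scaled with TMM and tested with the quasi-likelihood test of edgeR 4.0.16 (R 4.3.3), with Benjamini-Hochberg adjustment over all genes and a threshold of 0.05. The comparison of wild-type lines and the difference of effects used 1 fit over 12 libraries. Fold changes are log2, knockout over wild type. Levels are CPM with TMM from the 12 libraries, and mean ± SD over 3. With 3 against 3 an exact permutation test cannot go below p = 0.1. Exact intervals for counts cover counting error only. Promoter windows came from RefSeq (GRCh38.p14). Scripts were tested on simulated data.

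Alternatives were RLE factors, no TMM, no filter, 1 CPM in 3 libraries, DESeq2 1.42.0, limma-voom (limma 3.58.1), thinning to equal depth, centring within chromosomes, adjusted p under 0.01, the 12-library fit (for the lines together, the 6 wild-type libraries alone) and each library left out. Named were all 10 genes, every listed pathway gene past the threshold in a knockout contrast, the most abundant per list, and the 5 genes most like GDF6, ID1 and ID3. The members and lists were chosen with earlier results of these data known. SP7 was not analysed here, and 1 marker gene of the lines is not reported here.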

Additional observations from a re-analysis of the deposited data

Results flagged for a closer look

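The knockout effect on ACVR1, a type I BMP receptor, differed between the lines by 0.97 on the log2 scale (H1299 minus A549, SE 0.16, adjusted p = 0.00906 for the difference, edgeR), lower in 3 of 3 A549 knockout libraries and higher in 3 of 3 H1299 knockout libraries. The call held in all 12 fits with 1 library left out (0.89 to 1.07). After centring within chromosomes it was 0.49 (adjusted p = 0.171). The effect on SMAD7, an inhibitor of TGF-beta and BMP receptors, differed by -1.22 (SE 0.29, adjusted p = 0.0393), with 3 of 3 H1299 knockout libraries below all wild-type libraries and overlapping groups in A549. It ranged from -1.35 to -0.96, with adjusted p from 0.0287 to 0.106, over the libraries left out.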

How the results depend on the processing

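Over 838 comparisons of a gene's value with an alternative, 722 kept direction and side of the threshold (or moved by less than the spread), 71 lost the call, 7 gained it, 36 changed sign and 2 moved. The number of the 10 genes called in A549 was 1, and 2 with no low-count filter, DESeq2 or the 12-library fit (BMP4 and ID2), and 0 to 2 with libraries left out (0 without A549 WT replicate 2, 2 without A549 WT replicate 3). In H1299 it was 0 of 7, and 2 with no filter (ID2 and BAMBI), 1 with DESeq2 (ID2), and 0 to 1 with libraries left out (1 without H1299 WT replicate 1). Between wild-type lines it was 5 to 6, and for the difference 0 throughout. The causes were not tested.

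Of the values that changed sign, BMPR1A between the wild-type lines was the only one called in the main test (-0.61), and the largest of the others were BMPR2 in A549 (-0.35) and the differences for BMPR2 (0.37) and ID2 (0.33). In A549, ID3 stood at 0 with limma-voom, and centring within chromosomes gave -0.02 for ID3 and 0.11 for BMPR2. In H1299, ID4 was 0 with RLE factors, -0.01 with no filter and -0.06 after centring, and BMPR2 was 0 after centring. After centring, BMPR1A between the wild-type lines was 0.01, and the differences between lines were -0.13 for ID2, 0.01 for BMPR1A and -0.12 for BMPR2. With libraries left out, ranges in A549 were -0.21 to 0.20 for ID1, -0.20 to 0.14 for ID3, -1.91 to 0.26 for ID4 and -0.08 to 0.19 for BMPR1A. In H1299 they were -0.31 to 0.50 for ID4 and -0.04 to 0.12 for BMPR2, between wild-type lines -0.59 to 0.17 for ID4, and for the difference -0.28 to 1.93 for ID4 and -0.12 to 0.17 for BMPR1A.

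Counts over all genes in A549 were 430, and 1275 with no filter, 1543 with DESeq2, 226 after centring, 8 at 0.01, 1772 in the 12-library fit and 10 to 1016 with libraries left out. In H1299 they were 1786, and 3077 with no filter, 323 at 0.01, 559 in the 12-library fit and 471 to 1469 with libraries left out. For the difference they were 788, and 1239, 1706 and 465 with no filter, DESeq2 and centring, 140 at 0.01 and 310 to 1359 with libraries left out. No paired analysis was possible because the labels give no shared replicate numbers. Depth limits GDF6 in A549, and BMP4 and BAMBI in H1299. Centring was by whole chromosome, not by arm.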
